A study of Mus musculus with 6 samples.

Results

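Laminins, matrix glycoproteins and their integrin receptors were examined in the pharyngeal arches of mouse embryos with and without *Pax9*. The genes were chosen by symbol alone, as all rows for laminin chains, nidogens, fibrillins, fibulins, emilins, thrombospondins, Efemp proteins, fibronectin, elastin, perlecan, agrin, tenascin C, versican and integrin subunits. This gave 49 of the 14647 genes listed, of which 33 encode matrix proteins and 16 encode integrin subunits. RNA-seq was available for 3 *Pax9*-/- embryos (labelled mt) and 3 wild-type embryos (labelled wt) at embryonic day 9.5, each library from its own embryo. The *Pax9*-null embryos carried the null allele in every tissue and came from intercrosses of heterozygotes on a C57Bl/6J background, and no treatment was given. The dissected piece held the arches behind the first and ended at the base of the heart. Endoderm, ectoderm, mesenchyme, vessels and blood were thus measured together, and RNA of heart muscle and neural tube was also present, as given below. In such bulk tissue, fewer cells of a type and less RNA per cell cannot be told apart.

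Laminins are trimers of an alpha, a beta and a gamma chain that polymerise into the sheet of a basement membrane, where nidogens, perlecan and agrin tie them to collagen IV and to cells. Fibronectin, tenascin C and versican fill the loose matrix through which neural crest cells migrate into the pharyngeal arches, and fibrillins, fibulins and emilins build microfibrils and elastic fibres, which later bear load in the walls of the arch arteries. Integrins are the receptors for these proteins, each made of an alpha and a beta subunit, and they join the matrix outside the cell to the actin cytoskeleton inside it.

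Expression was given as log2 RPKM (reads per gene, scaled to the length of the gene and the size of the library), on which a difference of 1 is a doubling and levels of different genes can be compared per length. The reads recovered on the listed genes numbered 11882221, 11676354 and 11767741 in *Pax9*-null replicates 1 to 3 and 12705083, 12261071 and 12116508 in wild-type replicates 1 to 3. *Pax9* itself stood at −0.43, −0.63 and −0.59 log2 RPKM in the *Pax9*-null libraries and at 0.63, 0.71 and 0.96 in the wild-type libraries. All *Pax9*-null libraries lay below all wild-type libraries, as their labels require, with a log2 fold change of −1.32 (SE 0.19, limma adjusted *P*=0.0155, *n*=3 per genotype). Reads on *Pax9* were thus still present in the *Pax9*-null libraries, and the part of the gene from which they came was not analysed here.

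Libraries of the same genotype were not alike in every cell type. The summed level of 8 cardiomyocyte markers, of which the atrial myosin light chain gene *Myl7* was the most abundant, was 917, 771 and 741 RPKM in *Pax9*-null replicates 1 to 3 and 754, 820 and 37.9 in wild-type replicates 1 to 3. Wild-type replicate 3 thus held far less heart muscle RNA than any other library, and its 5 smooth muscle markers summed to 74.7 RPKM against 248 to 331 elsewhere. *Acta2*, the most abundant of them, was at 48.3 RPKM there, while *Cald1* was at 17.6 RPKM, inside the range of the other libraries. Erythroid markers (8 of 8 listed, most abundant *Hbb-y*) summed to 4900, 2640 and 4460 RPKM in the *Pax9*-null libraries and to 2400, 2500 and 2460 in the wild-type libraries. Every *Pax9*-null library was above every wild-type library in that sum, with replicates 1 and 3 standing apart, and *Hbb-bh1*, an embryonic beta-like globin gene, was called higher. Endothelial markers (8 of 8, most abundant *Tek*) summed to 64.6, 75.7 and 63.6 RPKM in *Pax9*-null embryos and to 112, 78.8 and 71.2 in wild-type embryos. Wild-type replicate 1 was the highest, the genotypes overlapped, and 2 of the 8 genes, *Cdh5* and *Tie1*, were called lower, where 12% of all genes tested were.

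Markers of the labelled tissue were present in all libraries. The pharyngeal endoderm markers (8 of 8 listed, most abundant *Cldn6*) summed to 84.5, 104 and 92 RPKM in *Pax9*-null embryos and to 86.9, 103 and 93 in wild-type embryos, and *Pax9* was the only gene among them that was called. The neural crest and arch mesenchyme markers (8 of 8, most abundant *Twist1*) summed to 111, 118 and 111 RPKM and to 119, 106 and 108 RPKM, with *Sox10* called lower and *Twist1* called higher. Neural tube markers (8 of 8, most abundant *Sox2*) were also present. They summed to 124, 124 and 127 RPKM in *Pax9*-null embryos and to 125, 148 and 174 RPKM in wild-type embryos. *Nes* and *Msi1* were called lower, but only 3 of the 8 had negative fold changes, and the median was 0.10. Wild-type replicate 1 was the lowest library for *Sox2* (29.4 RPKM), *Hes5* (11.4 RPKM), *Sox1*, *Pax6*, *Nkx6-1* and *Olig2*. It was the highest for *Nes*, which gave 65.2 RPKM of its sum. Of 8 markers of megakaryocytes and macrophages 4 were analysed, and their sum was at most 5.59 RPKM in any library (most abundant, *Pf4*). The part of any cell type in the results that follow was not tested.

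Every laminin, matrix glycoprotein or integrin gene that was called was lower in *Pax9*-null embryos. Most of the called genes encode matrix proteins, as do most of the genes tested, and the difference between matrix genes and integrins was not tested. Of the 49 genes, 43 passed the filter on low values (averaging 0.5 RPKM or more), 30 of them matrix genes and 13 integrins, while *Lama2*, *Lama3*, *Lamb3*, *Itga11*, *Itgb4* and *Itgb6* were below it. Genes were called at an adjusted *P* of at most 0.1 by limma. Of the 30 matrix genes, 14 (46.7%) were called lower, where 12% of the 13547 genes tested were called lower, and 0 were called higher, where 14.7% of all genes were. The median log2 fold change of the matrix genes was −0.61, which is 65.7% of the wild-type level, against 0.00 for all genes tested, and 29 of the 30 had a negative fold change. Of the 13 integrins, 3 (23.1%) were called lower and 0 higher, with a median of −0.30 (81% of the wild-type level) and 11 negative values. Few of these calls were kept when trends with gene length and GC content were taken out of each library, a fit that called 1 matrix gene and 0 integrins and gave medians of −0.27 and −0.15. Among the genes tested, the libraries of the genotypes did not overlap, with *Pax9*-null the lower, for 15 matrix genes and 4 integrins, against 20.1% of all genes in that direction. No tested member was higher in *Pax9*-null embryos without overlap, against 21.8% of all genes.

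The differences were not spread evenly over the libraries. The mean level of the 30 matrix genes was 1.71, 2.09 and 1.96 log2 RPKM in *Pax9*-null replicates 1 to 3 and 2.93, 2.26 and 2.33 in wild-type replicates 1 to 3. For the 13 integrins the means were 2.56, 2.72 and 2.55 in *Pax9*-null embryos and 3.21, 2.78 and 2.74 in wild-type embryos. Wild-type replicate 1 was the highest of the 6 libraries for 36 of the 43 genes (83.7%, against 29.9% of all genes tested), and *Pax9*-null replicate 1 the lowest for 22 (51.2%, against 21.2%). Wild-type replicate 1 was thus high in the matrix genes and in the endothelial markers, and low in most neural tube markers. *Pax9*-null replicate 1 was low in the matrix genes and high in the erythroid markers. Calls depended on single libraries, among all genes tested as well as among the members. With all 6 libraries 3611 genes were called in all. Without *Pax9*-null replicate 3, which did not stand apart in the matrix genes, there were 0 matrix genes, 0 integrins and 175 genes in all called. Without *Pax9*-null replicate 1 there were 1, 0 and 301, and without wild-type replicate 1 there were 5, 0 and 1799.

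**Figure D1:**
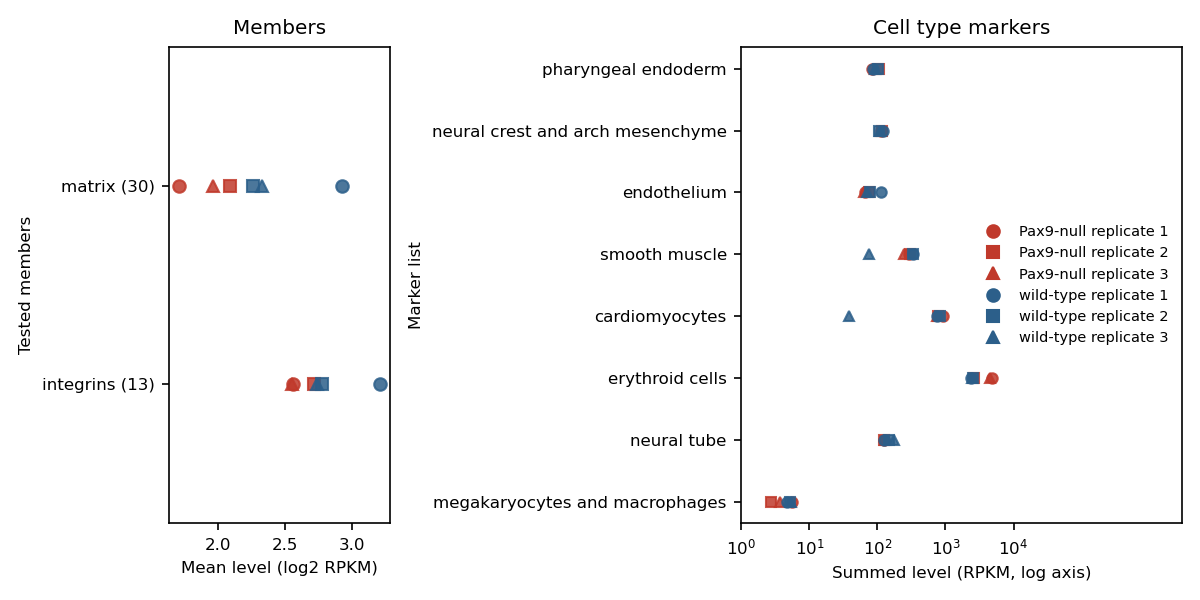
Left, mean log2 RPKM of the 30 matrix and 13 integrin genes tested, with a point for each library. Right, summed RPKM of each cell type marker list on a log axis. The matrix mean ran from 1.71 in *Pax9*-null replicate 1 to 2.93 in wild-type replicate 1, and wild-type replicate 3 stood apart in cardiomyocyte markers, at 37.9 RPKM.

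Promoter sequence was at hand for 31 of the 43 genes tested in the RefSeq table for GRCm38.p6. The windows of *Itga5*, *Itgb1* and *Fbln1* are shown as examples of the sequence before genes that differ in how they behaved. Each is the 250 bases before a start annotated in RefSeq, 5′ to 3′ on the strand of the gene. The gene coordinates given elsewhere are from GENCODE M21, and those of *Itga5* do not adjoin its window. *Itga5* (chr15:103366792-103367041, minus strand) and *Itgb1* (chr8:128685404-128685653, plus strand) are genes whose products pair as the main fibronectin receptor and of which only the former was called lower, and *Fbln1* (chr15:85205699-85205948, plus strand) is a matrix gene that was called lower. Capitals mark matches on either strand to a GC box (GGGCGG), a TEAD motif (GGAATG) or an AP-1 motif (TGANTCA).
Itga5: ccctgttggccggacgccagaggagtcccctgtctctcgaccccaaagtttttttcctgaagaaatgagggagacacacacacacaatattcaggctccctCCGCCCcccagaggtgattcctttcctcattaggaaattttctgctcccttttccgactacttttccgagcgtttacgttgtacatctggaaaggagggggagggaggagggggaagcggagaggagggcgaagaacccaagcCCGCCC
Itgb1: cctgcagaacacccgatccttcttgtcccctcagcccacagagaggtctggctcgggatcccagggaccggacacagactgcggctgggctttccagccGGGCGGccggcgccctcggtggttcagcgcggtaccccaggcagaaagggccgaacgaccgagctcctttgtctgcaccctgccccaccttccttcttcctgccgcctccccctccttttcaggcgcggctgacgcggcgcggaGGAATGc
Fbln1: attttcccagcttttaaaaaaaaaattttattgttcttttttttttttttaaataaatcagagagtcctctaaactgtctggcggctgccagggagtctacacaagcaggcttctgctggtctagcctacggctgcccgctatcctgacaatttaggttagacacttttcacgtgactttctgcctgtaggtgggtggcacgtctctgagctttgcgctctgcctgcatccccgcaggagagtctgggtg
The *Itga5* window held 2 GC box matches, the *Itgb1* window held 1 GC box and 1 TEAD match, and the *Fbln1* window shown held none of these motifs. A second window of *Fbln1* in the table (chr15:85205758-85206007), for a later start, held 1 GC box match. Among 18 windows of 12 genes called lower, 72.2% held a GC box, 11.1% a TEAD motif and 0% an AP-1 motif. Among the 39 windows of all 31 members with sequence, called or not, the shares were 66.7%, 12.8% and 2.56%. Among the 12271 windows of all genes tested they were 58.4%, 10.6% and 4.03%, and among all 32851 windows in the table they were 32.7%, 12.6% and 6.75%. These matches describe the letters in the windows and were not measured as binding.

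All 8 laminin chains tested had negative fold changes, where 50.2% of all genes did. Of these chains 4 were called lower, where 12% of all genes were, and after trend removal 0 were. The 4 called in the main fit were the alpha chain *Lama1*, the beta chain *Lamb2* and the gamma chains *Lamc1* and *Lamc3*, so that each kind of chain was represented. *Lamc3* (chr2:31887291-31946539), a gamma chain of more restricted expression, stood at −0.99, −1.40 and −0.44 log2 RPKM in *Pax9*-null replicates 1 to 3 and at 0.66, −0.29 and 0.58 in wild-type replicates 1 to 3. The groups did not overlap, although wild-type replicate 2 was close to *Pax9*-null replicate 3, and the log2 fold change was −1.26 (SE 0.35, adjusted *P*=0.0573), or 41.6% of the wild-type level. This was a weakly expressed gene with 26 to 122 reads per library, and 6.27% of its exonic bases were shared with the gene *Gm13441*. *Lamc1* (chr1:153218922-153332786), the gamma chain of most laminins, stood at 2.82, 3.58 and 3.07 log2 RPKM in *Pax9*-null embryos and at 4.52, 3.65 and 3.73 in wild-type embryos. *Pax9*-null replicate 2 came close to wild-type replicate 2 without overlapping it, and the log2 fold change was −0.81 (SE 0.27, adjusted *P*=0.0818). *Lamb2* (chr9:108479736-108490530), the beta chain of vascular and neuromuscular laminins, had 0.87, 1.56 and 1.61 log2 RPKM against 2.35, 1.98 and 2.09 in wild-type embryos. Every *Pax9*-null library was clearly below the wild-type libraries, with a log2 fold change of −0.79 (SE 0.22, adjusted *P*=0.0585). *Lama1* (chr17:67697259-67822647), the alpha chain of the first embryonic basement membranes, had 1.85, 2.43 and 2.44 log2 RPKM against 3.25, 2.48 and 2.99. Here *Pax9*-null replicates 2 and 3 nearly touched wild-type replicate 2, and the log2 fold change was −0.67 (SE 0.24, adjusted *P*=0.0926).

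No other laminin chain passed the threshold. *Lama5* (chr2:180176373-180225859), the main alpha chain of epithelial and vascular basement membranes, had 0.49, 1.48 and 1.24 log2 RPKM in *Pax9*-null embryos and 1.74, 1.28 and 1.63 in wild-type embryos. *Pax9*-null replicate 2 lay above wild-type replicate 2, and the log2 fold change of −0.48 had an adjusted *P* of 0.237. *Lamb1*, the beta chain that joins *Lama1* and *Lamc1* in the embryonic laminin, had a log2 fold change of −0.58 (adjusted *P*=0.142). *Lama4*, of endothelial basement membranes, had −0.63 (0.221). *Lama2*, *Lama3* and *Lamb3* were listed but too weakly expressed to be tested, with at most 162, 30 and 47 reads in any library.

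The proteins that link laminin networks gave 1 gene called lower in each pair, where 12% of all genes were. After trend removal neither call was kept (adjusted *P* of 0.151 for *Nid1* and 0.609 for *Agrn*). *Nid1* (chr13:13437551-13512269), which binds the laminin gamma chain and collagen IV, stood at 2.89, 3.25 and 2.88 log2 RPKM in *Pax9*-null embryos and at 4.50, 3.30 and 3.93 in wild-type embryos. Wild-type replicate 2 was only just above *Pax9*-null replicate 2, and the other wild-type libraries were well above it, with a log2 fold change of −0.90 (SE 0.28, adjusted *P*=0.0690), or 53.6% of the wild-type level. Its paralogue *Nid2* had a log2 fold change of −0.51 (adjusted *P*=0.201), and 8.45% of its exonic bases were shared with *Rtraf*. *Agrn* (chr4:156165290-156197488), the heparan sulphate proteoglycan agrin, had 2.10, 2.83 and 2.62 log2 RPKM against 3.28, 2.96 and 3.29. *Pax9*-null replicate 1 was the lowest and no libraries overlapped, giving −0.66 (SE 0.20, adjusted *P*=0.0651). *Hspg2*, which encodes perlecan, had a fold change of similar size, −0.69, but with a standard error of 0.40 it was not called (adjusted *P*=0.252).

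**Figure D2:**
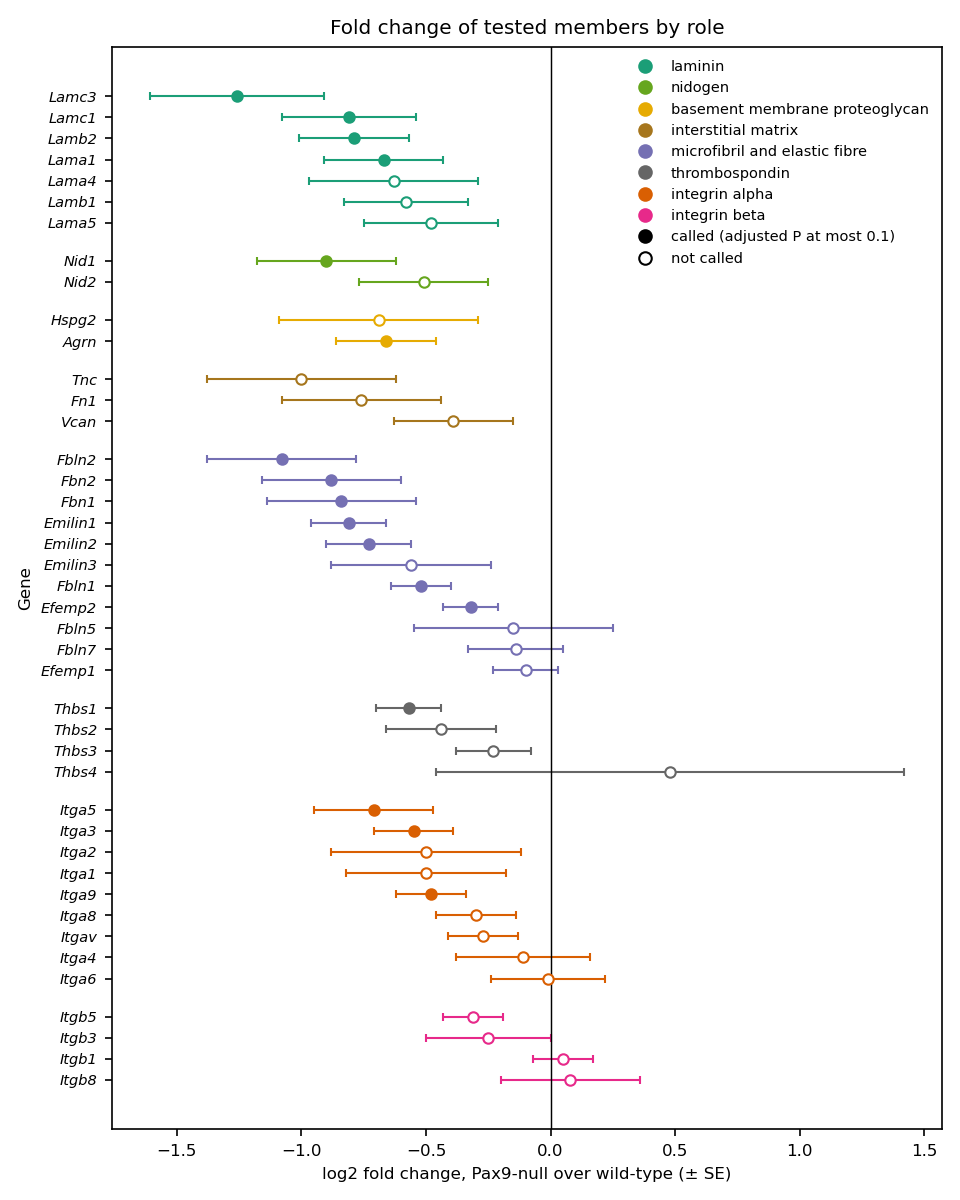
The log2 fold change (*Pax9*-null over wild-type, horizontal axis, with bars of 1 SE) of genes tested, grouped by role. Filled points are the 17 genes called lower; nearly all points lie left of 0, and the 4 beta integrins lie between −0.31 and 0.08.

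Of 11 microfibril and elastic fibre genes 7 were called lower, where 12% of all genes were, and after trend removal 0 were. *Fbln2* (chr6:91212455-91272540), a fibulin that bridges fibrillin, laminin and versican and is known from endocardial cushions and outflow vessels, had 0.74, 1.16 and 0.54 log2 RPKM in *Pax9*-null embryos and 2.50, 1.40 and 1.78 in wild-type embryos. The groups were apart, and expression fell to 47.4% of the wild-type level, a log2 fold change of −1.08 (SE 0.30, adjusted *P*=0.0561). *Fbn2*, the fibrillin of embryonic microfibrils, had 2.82, 3.32 and 3.21 log2 RPKM against 4.62, 3.42 and 3.96, and *Fbn1* (chr2:125300594-125507993), the fibrillin that persists in adult vessels, had 1.44, 1.79 and 1.64 against 3.17, 1.89 and 2.34. In both fibrillins wild-type replicate 1 was far above the rest and wild-type replicate 2 just above *Pax9*-null replicate 2. The log2 fold changes were −0.88 for *Fbn2* (SE 0.28, adjusted *P*=0.0773) and −0.84 for *Fbn1* (SE 0.30, adjusted *P*=0.0948). The gene *Gm9913* shares 20.1% of the exonic bases of *Fbn1*, and the effect of this overlap on the reads counted was not tested.

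The emilins followed, with 2 of 3 called lower, where 12% of all genes were. After trend removal neither call was kept (adjusted *P* of 0.121 for *Emilin1* and 0.174 for *Emilin2*). *Emilin1* (chr5:30913402-30921277), a glycoprotein of elastic fibres in the vessel wall, stood at 2.67, 3.22 and 3.12 log2 RPKM in *Pax9*-null embryos and at 3.95, 3.78 and 3.71 in wild-type embryos. There was a clear gap between the genotypes, with a log2 fold change of −0.81 (SE 0.15, adjusted *P*=0.0323), or 57% of the wild-type level. *Emilin1* had the lowest adjusted *P* of the 43 genes and was called in 5 of the 6 fits that left out 1 library, the exception being the fit without *Pax9*-null replicate 3 (0.119). *Emilin2* (chr17:71252172-71311978), a relative of the same family, had 3.09, 3.43 and 3.31 log2 RPKM against 4.34, 3.99 and 3.69. Again the libraries did not overlap, and the log2 fold change was −0.73 (SE 0.17, adjusted *P*=0.0436). *Emilin3* was expressed at a mean of only 0.777 RPKM and had −0.56 (adjusted *P*=0.248).

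Among the remaining genes of this class, *Fbln1*, a fibulin of embryonic matrix and the strongest in the class at a mean of 24.5 RPKM, had 4.19, 4.48 and 4.30 log2 RPKM in *Pax9*-null embryos and 5.06, 4.77 and 4.70 in wild-type embryos. It was lower in every *Pax9*-null library and fell by 0.52 on the log2 scale (SE 0.12, adjusted *P*=0.0453). *Efemp2*, which encodes fibulin 4 and is needed for elastic fibre assembly, fell by 0.32 (SE 0.11, adjusted *P*=0.0923). *Fbln5*, *Fbln7* and *Efemp1* had fold changes of −0.15, −0.14 and −0.10, and none was called (adjusted *P* of 0.816, 0.615 and 0.592). Unlike most members, *Efemp1* had a more negative value after trend removal, −0.50 without overlap between genotypes, which was not called either (adjusted *P*=0.128). Elastin itself was not analysed here.

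**Figure D3:**
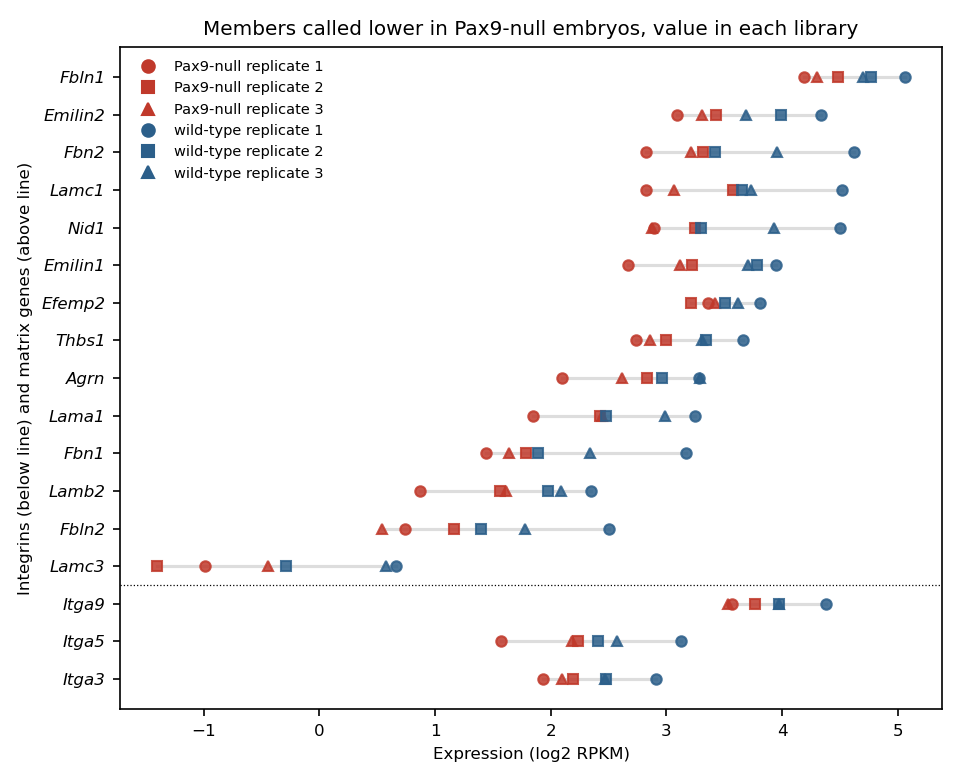
Expression (log2 RPKM, horizontal axis) in each of the 6 libraries for the 17 genes called lower, with 3 integrins below the dotted line and 14 matrix genes above it. *Pax9*-null points lie to the left of wild-type points in every row, with the narrowest gaps at wild-type replicate 2.

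Thrombospondins, which are matricellular proteins that bind many matrix and cell surface partners, were mixed. *Thbs1* (chr2:118111876-118127133), an activator of latent TGF-beta, had 2.74, 3.0 and 2.86 log2 RPKM in *Pax9*-null embryos and 3.66, 3.34 and 3.31 in wild-type embryos. All wild-type libraries were above all *Pax9*-null libraries, with a log2 fold change of −0.57 (SE 0.13, adjusted *P*=0.0426). *Thbs2* did not overlap between genotypes either, but its fold change of −0.44 was not called (adjusted *P*=0.184, with 40 to 75 reads per library), nor was that of *Thbs3*, −0.23 (0.297). *Thbs4* had 1.55, 1.88 and 1.49 log2 RPKM against 2.57, 2.32 and −1.41. Wild-type replicate 3, with 15 reads, was far below every other library, and this was also the library that was low in cardiomyocyte markers. The log2 fold change was 0.48 (SE 0.94, adjusted *P*=0.743), and without wild-type replicate 3 it was −0.80 (adjusted *P*=0.0602).

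No gene of the interstitial matrix was called, although all 3 had negative fold changes. *Fn1* (chr1:71585520-71653200), which encodes fibronectin, stood at 3.17, 4.09 and 3.71 log2 RPKM in *Pax9*-null embryos and at 5.05, 3.87 and 4.32 in wild-type embryos. *Pax9*-null replicate 2 exceeded wild-type replicate 2, and the log2 fold change was −0.76 (SE 0.32, adjusted *P*=0.138). *Tnc* (chr4:63959785-64047015), which encodes the anti-adhesive glycoprotein tenascin C, had 1.38, 2.22 and 1.42 log2 RPKM against 3.52, 2.33 and 2.16. Only *Pax9*-null replicate 2 and wild-type replicate 3 overlapped, and wild-type replicate 1 was far above the rest. The log2 fold change of −1.0 (SE 0.38) was not called (adjusted *P*=0.110). *Vcan* (chr13:89655312-89742509), which encodes the hyaluronan-binding proteoglycan versican and was the most abundant matrix gene at a mean of 25.5 RPKM, had 4.39, 4.48 and 4.41 log2 RPKM against 5.42, 4.38 and 4.65. Apart from the high wild-type replicate 1 the libraries were alike, and the log2 fold change was −0.39 (SE 0.24, adjusted *P*=0.272).

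Of the 9 integrin alpha subunits 3 were called lower and of the 4 beta subunits 0, where 12% of all genes were, and the difference between alpha and beta subunits was not tested. After trend removal 0 of either kind were called. *Itga5* (chr15:103344286-103366763), the alpha subunit of the main fibronectin receptor, had 1.57, 2.24 and 2.18 log2 RPKM in *Pax9*-null embryos and 3.13, 2.41 and 2.57 in wild-type embryos. The groups did not overlap, *Pax9*-null replicate 1 being lowest and wild-type replicate 1 highest, and expression fell to 61.2% of the wild-type level, a log2 fold change of −0.71 (SE 0.24, adjusted *P*=0.0869). *Itga3* (chr11:95044474-95076801), an epithelial laminin receptor subunit, had 1.93, 2.19 and 2.10 log2 RPKM against 2.91, 2.48 and 2.47. The libraries were again apart, by −0.55 on average (SE 0.16, adjusted *P*=0.0600). *Itga9* (chr9:118606690-118901003), which receives tenascin C and other ligands, had 3.57, 3.77 and 3.53 log2 RPKM against 4.38, 3.97 and 3.97. It too was lower in every *Pax9*-null library, with a log2 fold change of −0.48 (SE 0.14, adjusted *P*=0.0593). Each of these subunits was called in at most 3 of the 6 fits that left out 1 library.

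The other receptors of fibronectin and laminin overlapped between genotypes. *Itgav* (chr2:83724397-83806916), a receptor subunit for fibronectin and fibrillin, had 2.94, 3.09 and 2.86 log2 RPKM in *Pax9*-null embryos and 3.51, 3.02 and 3.17 in wild-type embryos. *Pax9*-null replicate 2 lay between the lower wild-type libraries, and the fold change was −0.27 (adjusted *P*=0.218). *Itga8* (chr2:12106632-12301922), which also binds fibronectin and tenascin C, had 2.04, 2.23 and 1.84 log2 RPKM against 2.54, 2.10 and 2.39. Wild-type replicate 2 fell inside the *Pax9*-null range, and the fold change was −0.30 (adjusted *P*=0.219). *Itga4* (chr2:79255426-79333123), a fibronectin receptor subunit of migrating cells, had 1.05, 0.80 and 0.64 log2 RPKM against 1.50, 0.55 and 0.75. Its groups were intermixed, with a fold change of −0.11 (adjusted *P*=0.806). *Itga6* (chr2:71745616-71858416), the laminin receptor subunit and the most abundant alpha subunit at a mean of 25.3 RPKM, had 4.70, 4.83 and 4.35 log2 RPKM against 4.95, 4.86 and 4.11. The *Pax9*-null libraries lay inside the wild-type range, and the fold change was −0.01 (SE 0.23, adjusted *P*=0.973). The collagen receptor subunits *Itga1* and *Itga2* had fold changes of −0.50 and −0.50 (adjusted *P* of 0.296 and 0.378). Their standard errors were 0.32 and 0.38.

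*Itgb1* (chr8:128685654-128733200), the beta subunit shared by most matrix receptors and the most abundant integrin at a mean of 121 RPKM, had 6.92, 6.99 and 6.91 log2 RPKM in *Pax9*-null embryos and 7.13, 6.85 and 6.70 in wild-type embryos. The *Pax9*-null libraries lay inside the wild-type range, and the log2 fold change was 0.05 (SE 0.12, adjusted *P*=0.816). *Itgb5*, a partner of *Itgav*, did not overlap between genotypes but was not called, at −0.31 (SE 0.12, adjusted *P*=0.115). *Itgb3* and *Itgb8*, further partners of *Itgav*, had −0.25 and 0.08 (adjusted *P* of 0.489 and 0.859). The weakly expressed *Itga11*, *Itgb4* and *Itgb6* had at most 36 reads in any library.

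To compare ligands with their receptors, the difference of their levels was taken within each library for 12 pairs known from textbook binding, 2 of which set an integrin alpha subunit against its partner *Itgb1*. The difference was lower on average in *Pax9*-null embryos in 11 of the 12 pairs, and in 8 of the 12 after trend removal. The libraries of the genotypes did not overlap in 3 pairs. The pairs share genes and are not independent of each other. The distance between fibronectin and its main receptor subunit was similar in both genotypes, in that *Fn1* exceeded *Itga5* by 1.60, 1.85 and 1.54 log2 RPKM in *Pax9*-null libraries and by 1.92, 1.46 and 1.75 in wild-type libraries. These ranges overlapped almost wholly, and the change in the difference was −0.05 (exact permutation test, two-sided, *P*=0.9, *n*=3 per genotype). Against *Itga4*, *Fn1* was in excess by 2.12, 3.29 and 3.07 log2 RPKM in *Pax9*-null libraries and by 3.55, 3.32 and 3.56 in wild-type libraries. That difference was lower in every *Pax9*-null library, by −0.65 on average, although *Pax9*-null replicate 2 nearly touched wild-type replicate 2. For *Fbn1* and *Itgav* it was −1.50, −1.30 and −1.22 against −0.34, −1.14 and −0.83, a change of −0.57 without overlap. Here *Pax9*-null replicate 3 was close to wild-type replicate 2. *Itga5* was below its partner *Itgb1* by −5.35, −4.75 and −4.73 log2 RPKM in *Pax9*-null libraries and by −4.00, −4.44 and −4.13 in wild-type libraries, a change of −0.75 without overlap. Each of these 3 pairs had an exact permutation *P* of 0.1, the smallest that 3 against 3 libraries allow, and 0.4 after Benjamini-Hochberg adjustment over the 12 pairs. Once trends with gene length and GC content were removed from the libraries, these 3 changes shrank to −0.23, −0.23 and −0.29.

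The other 8 pairs overlapped, with exact permutation *P* values of 0.2 to 0.9 (adjusted, 0.48 to 0.9). For *Fn1* the change in the difference was −0.49 against *Itgav* and −0.45 against *Itga8*, which became −0.10 and 0.02 after trend removal. For *Tnc* it was −0.51 against *Itga9* and −0.69 against *Itga8*. Laminin alpha chains against *Itga6* gave −0.66 for *Lama1* and −0.47 for *Lama5*, and *Lama5* against *Itga3* gave 0.06. After trend removal these were −0.45, −0.08 and 0.29. *Itga6* against *Itgb1* gave −0.06, and 0.30 after trend removal. At this number of libraries, a change of the size seen for *Tnc* and *Lama1* could not be told from the spread between embryos.

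**Figure D4:**
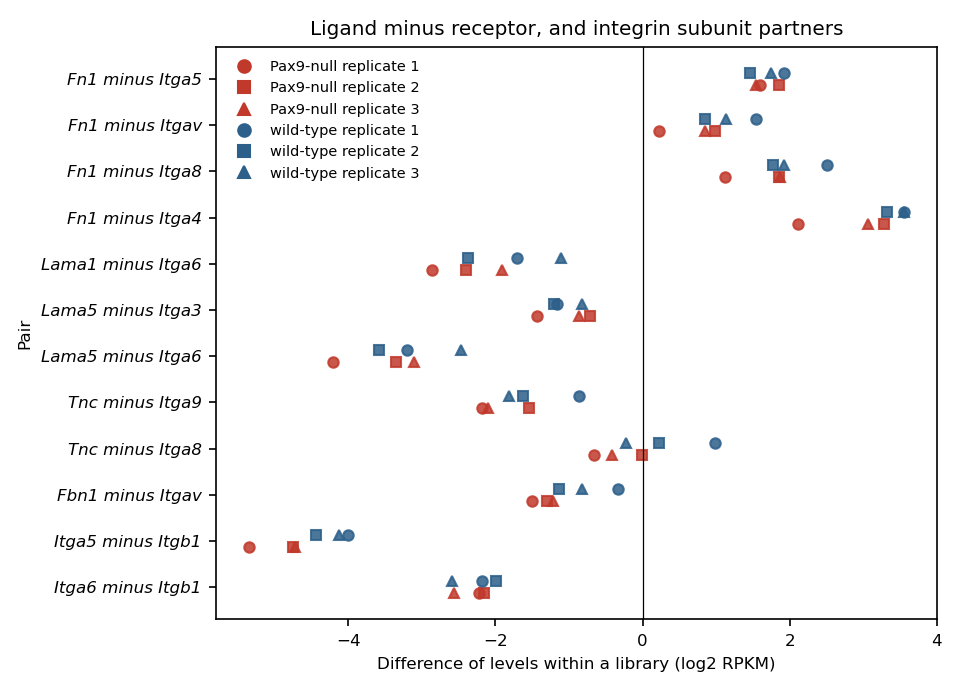
Difference of log2 RPKM between the members of each of 12 pairs (horizontal axis), with 1 point for each library. *Pax9*-null and wild-type points do not overlap for *Fn1* minus *Itga4*, *Fbn1* minus *Itgav* and *Itga5* minus *Itgb1*. The gaps are narrow for *Fn1* minus *Itga4* and *Fbn1* minus *Itgav*, and the points are intermixed for *Fn1* minus *Itga5*.

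Genes that act with integrins inside the cell were examined alongside. Of 23 tested genes for adaptors and actin linkers, 15 were called lower and 1 higher (12% and 14.7% of all genes, as above), with a median log2 fold change of −0.54. After trend removal 0 were called in either direction, and the median was −0.14. *Tln1*, whose product talin activates integrins, had 2.61, 3.21 and 2.89 log2 RPKM in *Pax9*-null embryos and 4.49, 3.48 and 3.59 in wild-type embryos. The libraries were apart by −0.95 (SE 0.27, adjusted *P*=0.0618), and its paralogue *Tln2* had −0.94 (SE 0.27, adjusted *P*=0.0594). The adaptor *Parvb* (−0.74), the actin crosslinkers *Actn4* (−0.73) and *Flna* (−0.61), and the talin partner *Vcl* (−0.54) were also called lower. *Lims1*, which binds integrin-linked kinase, was called higher (0.36, adjusted *P*=0.0572), and the kindlin gene *Fermt2* was at 0.04 (adjusted *P*=0.830).

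Of 15 matrix receptors other than integrins, 4 were called lower and 1 higher (12% and 14.7% of all genes), with a median of −0.28. After trend removal 1 was called lower and 0 higher, and the median was −0.14. *Sdc3*, a syndecan that carries heparan sulphate, had 1.67, 1.71 and 1.73 log2 RPKM in *Pax9*-null embryos and 2.71, 2.46 and 2.65 in wild-type embryos. Its values were tight in both groups and far apart, with a log2 fold change of −0.90 (SE 0.12, adjusted *P*=0.0125). The glypican *Gpc1* (−0.62), the collagen receptor *Ddr1* (−0.40) and the laminin receptor *Bcam* (−0.36) were also called lower, and *Cd47*, a receptor of thrombospondin 1, was called higher (0.36, adjusted *P*=0.0768). Dystroglycan (*Dag1*), which binds laminin and agrin, had −0.40 (adjusted *P*=0.126).

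Of 27 further matrix genes tested, 7 were called lower and 0 higher (12% and 14.7% of all genes), with a median of −0.45. After trend removal 3 were called lower and 0 higher, and the median was −0.20. *Tgfbi*, an integrin-binding adhesion protein, had 3.60, 3.80 and 3.47 log2 RPKM in *Pax9*-null embryos and 4.85, 4.30 and 4.61 in wild-type embryos. The genotypes were well separated, with −0.96 (SE 0.15, adjusted *P*=0.0190). The others called in the main fit were the microfibril genes *Mfap2* (−0.45) and *Mfap4* (−0.45), the proteoglycan *Bgn* (−0.73), the endothelial matrix gene *Mmrn2* (−0.73), *Spon1* (−0.71) and vitronectin (*Vtn*, −0.60).

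The members are long genes, with a median of 7003 bp of exons against 4170 bp for all genes tested. Their median GC content was 52.6% against 49.3% for all genes tested. Matrix genes lay above that of all genes, at 53.6%, and integrins below it, at 44.8%. The matrix genes and the integrins thus differ in GC content as well as in role. Length and GC content are the properties whose trends were removed in the fit cited above. Fold changes in that fit were negative for 27 of the 30 matrix genes and 10 of the 13 integrins, and libraries did not overlap, with *Pax9*-null the lower, for 6 and 2, against 15.2% of all genes. Only *Thbs1* was called lower (−0.43, adjusted *P*=0.0867), where 1.92% of all genes were called lower, and no integrin was. The most negative values there, none of them called, were −0.84 for *Lamc3* (adjusted *P*=0.213), −0.70 for *Nid1* (0.151), −0.67 for *Tnc* (0.256) and −0.66 for *Fbln2* (0.195), whereas *Hspg2* moved to −0.03, *Lama5* to 0.14 and *Thbs4* to 0.67 (adjusted *P*=0.692). Of the genes alongside, 0 of the adaptors and linkers inside the cell were called, *Sdc3* was (−0.48, adjusted *P*=0.0877), and so were *Tgfbi* (−0.78, 0.0566), *Mfap2* (−0.63, 0.0624) and *Mfap4* (−0.56, 0.0792). Of the marker genes named above as called, *Pax9* (−1.34, adjusted *P*=0.0316) and *Nes* (−0.63, 0.0540) were still called, and *Cdh5* (−0.52, 0.175), *Tie1* (−0.38, 0.326), *Hbb-bh1* (−0.05, 0.899), *Sox10*, *Twist1* and *Msi1* were not.

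**Figure D5:**
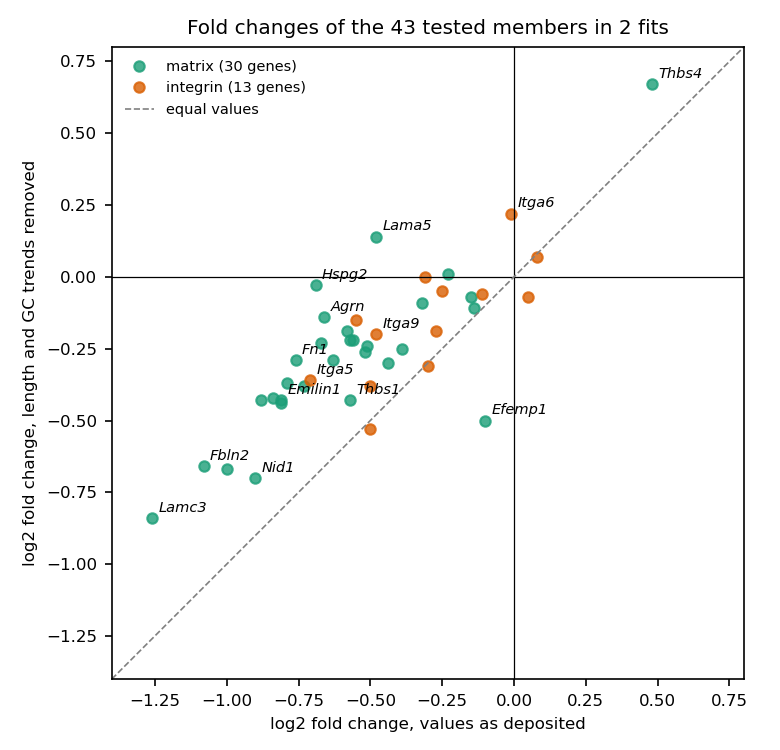
Log2 fold change of each of the 43 genes in the values as deposited (horizontal axis) and once the length and GC trends had been removed (vertical axis). Most points lie above the dashed line of equal values and below 0, with medians of −0.27 for matrix genes and −0.15 for integrins on the vertical axis.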

How the data were processed

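The sample labels name sorted cells and a single-cell library protocol, whereas the methods of the study describe whole tissue and stranded TruSeq libraries; the latter was followed. The authors trimmed adaptors (Trimmomatic 0.32), kept uniquely aligned, non-redundant reads, sub-sampled libraries towards the smallest, aligned to GRCm38 (STAR 2.5.1a) and counted reads per Ensembl gene (featureCounts 1.5.1), the versions being those of the submitters' processing notes (the methods of the study name a different release of STAR). Counting at default parameters ignores strand. The values deposited by the authors are log2 RPKM. Whole reads were recovered from them with gene lengths from GENCODE M21 (82.7% of values within 0.05 of a whole read at that length, and 14646 of 14647 genes after a search of lengths); the prior count was 0.50. The effective library sizes were 11509904 to 12692324, and no interval rests on them.

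Genotypes were compared with limma 3.58.1 (R 4.3.3; trended variance, two-sided, Benjamini-Hochberg adjustment over the 13547 genes averaging 0.5 RPKM or more), tested on simulated data. Calls needed an adjusted *P* of at most 0.1, the threshold of the study. *P* values measure spread between 3 embryos per genotype, and an exact permutation test of 1 gene cannot go below 0.1. Pairs were tested with scipy 1.17.1, and figures drawn with matplotlib 3.10.9. Values in every library are given for called genes without overlap between genotypes (up to 12 matrix genes and 8 integrins, by size of fold change; 3 integrins qualified), for the genes of the pairs, for the most abundant gene of each group and for *Pax9*; *Fbln1*, *Sdc3*, *Tln1*, *Tgfbi* and *Thbs4* were added after their values were seen, as were the promoters shown. The genes, pairs, pathway lists and marker lists were chosen with earlier results of these data known. The pair of *Lama1* with *Itga7* was not analysed here, and values of single genes that stand in the counts but are not named are not reported here. Alternatives were other pseudocounts, filters and normalizations, a replicate block, library weights, no variance trend, voom on recovered reads, removal of length and GC trends (splines with 5 degrees of freedom) and each library left out.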

Additional observations from a re-analysis of the deposited data

How the results depend on the processing

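Of the alternatives that kept all 6 libraries, other pseudocounts, filters, centring, quantile normalization, library weights and voom on recovered reads left the number of calls within 1.5 times the 14 matrix genes, 3 integrins and 3611 genes overall. The replicate block gave 6, 0 and 1377, no variance trend gave 9 matrix genes, and an adjusted *P* of at most 0.05 gave 4, 0 and 1335. Removal of length and GC trends gave 1, 0 and 503, and 0, 0 and 227 with the replicate block. With 1 library left out the counts ran from 0 to 16, from 0 to 4 and from 175 to 3578, and the medians from −0.76 to −0.45 for matrix genes and from −0.39 to −0.18 for integrins. Deviations from the genotype means had correlations of −0.02, −0.17 and 0.26 between samples with the same replicate number. Between samples with different numbers they ran from −0.35 to 0.36. With 3 libraries per genotype, these correlations cannot decide whether the numbers pair the embryos. After trend removal the pair differences were −0.10 for *Fn1* minus *Itgav*, 0.02 for *Fn1* minus *Itga8*, −0.23 for *Fbn1* minus *Itgav*, −0.29 for *Itga5* minus *Itgb1*, 0.30 for *Itga6* minus *Itgb1*, −0.23 for *Fn1* minus *Itga4*, 0.07 for *Fn1* minus *Itga5*, −0.08 for *Lama5* minus *Itga6* and 0.29 for *Lama5* minus *Itga3*, and they ran from −0.47 to −0.36 for the other 3 pairs; the cause was not tested. Of the genes, those that changed sign were uncalled: after trend removal *Itga6* (0.22), *Itgb5* (0.00), *Itgb1* (−0.07), *Lama5* (0.14) and *Thbs3* (0.01), with the same values under the replicate block; with library weights *Itga4* (0.09), *Itga6* (0.15), *Itgb8* (−0.13) and *Fbln5* (0.11); with centring *Itga6* (0.02); and with quantile normalization *Itgb1* (−0.18). With 1 library left out, the fold change ran from −0.30 to 0.18 for *Itga4*, from −0.28 to 0.14 for *Itga6*, from −0.05 to 0.16 for *Itgb1*, from −0.22 to 0.39 for *Itgb8*, from −0.46 to 0.22 for *Fbln5* and from −0.80 to 1.19 for *Thbs4*. No gene was called in all 6 of those fits, and 20 of the 43 were called in none.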
